A study of Danio rerio with 6 samples.

Results

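The genes described here encode the proteins of the cytosolic ribosome. They are the entries of the deposited table whose symbol is rpl or rps followed by a number and up to 2 letters, or rplp0, rplp1 or rplp2, in upper or lower case. Of 31701 genes with a value in every sample, 79 met this rule, with 47 of the large subunit and 32 of the small subunit. Their levels were measured by RNA-seq in hair cells and in non-sensory surrounding cells (nsSCs) from the inner ears of adult zebrafish, and each cell type had 3 samples of 1000 picked cells. The hair cells carried GFP and were picked from the lagena, utricle and saccule of Tg(pou4f3:GAP-GFP)s273t females aged 11 to 13 months. The nsSCs were GFP-negative cells picked from the same organs of the same transgenic line, sex and age. In this line GFP is driven by the promoter of pou4f3, a hair cell transcription factor gene. The study picked as hair cells only those GFP-positive cells that also had a visible bundle of stereocilia, the hallmark of hair cells. The nsSCs were defined by the lack of GFP and of stereocilia and are a mixture of cell types. Per the study's methods, each hair cell sample was pooled from several fish, and hair cells and nsSCs were collected from 1 set of fish. The sample descriptions call all 6 samples biological replicates but tie none to an animal, so that the p-values measure the spread between these pools.

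The ribosome is built of a small subunit, which reads the mRNA, and a large subunit, which joins the amino acids. Each subunit is a core of ribosomal RNA covered by proteins, of which most are present in 1 copy per ribosome. The proteins are thus needed in equal amounts, and their short mRNAs are among the most abundant of growing cells. Many zebrafish genes exist as paralogs from a genome duplication in the fish lineage, and some ribosomal proteins are encoded by a pair of genes.

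The values are RPKM, which are read counts scaled to transcript length and to the number of mapped reads. The test covered the 22374 genes whose mean reached 0.1 RPKM in hair cells, nsSCs or both, and all 79 ribosomal protein genes were among them. The log2 fold change is that of hair cells over nsSCs, on the scale of log2(RPKM + 0.1). A gene was called when the adjusted p of limma was under 0.05 and the change was at least 2-fold. All 8 hair cell markers were called higher in hair cells, as the labels say. Markers of several cell types were called higher in nsSCs, with 7 of 7 for red blood cells, 7 of 7 for leukocytes, 4 of 5 for glia, 6 of 6 for connective tissue, 5 of 5 for endothelium and 5 of 6 for epithelium. Markers of neurons and pigment cells went both ways, with 2 and 1 called higher in hair cells and 2 of 5 and 3 of 4 higher in nsSCs. Genes encoded in mitochondrial DNA took 14.9% to 15.8% of the summed RPKM in hair cells and 52.5% to 53.9% in nsSCs.

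Nearly every ribosomal protein gene was lower in hair cells than in nsSCs, and by a similar factor. The RPKM of the 79 genes summed to 10789, 10922 and 10196 in hair cells, against 43481, 53384 and 46531 in nsSCs. The sums of the cell types did not overlap, and the mean was 10635 ± 387 in hair cells and 47798 ± 5071 in nsSCs (SD, n = 3 each), which was 4.49-fold higher in nsSCs (exact permutation test, two-sided p = 0.1, the smallest that 3 against 3 samples allow). As a share of all RPKM of a sample, ribosomal protein genes took 1.50% ± 0.05 in hair cells and 4.80% ± 0.42 in nsSCs (exact permutation p = 0.1). When the mitochondrial genes were left out of the total, the share was 1.78% in hair cells and 10.3% in nsSCs. RPKM are relative to the mapped reads of a sample, so that a lower value in hair cells does not show less ribosomal protein mRNA per cell. In such pools, fewer cells of a type and less RNA per cell cannot be told apart. The part of each cell type of the nsSC mixture in the difference between hair cells and nsSCs was not tested.

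Taken gene by gene, 77 of the 79 were called higher in nsSCs, while 35.4% of all tested genes were called in that direction. These 77 were 46 of the 47 large subunit genes and 31 of the 32 small subunit genes. The largest adjusted p among them was 1.5e-05 and the standard errors lay between 0.05 and 0.14. All 3 hair cell samples lay below all 3 nsSC samples for the same 77 genes, a pattern that 42.6% of all tested genes had. Only 1 ribosomal protein gene was called higher in hair cells, against 31% of all tested genes, and in either direction 78 were called, against 66.4% of all tested genes. The remaining gene, labelled rpl37, had a log2 fold change just short of the threshold. The median log2 fold change was -2.21 over the 79 genes and 0.00 over all tested genes. It was -2.17 over the large subunit genes and -2.28 over the small subunit genes. The interquartile range ran from -2.45 to -1.97 for these genes and from -1.95 to 1.44 for all tested genes. In all, 68 genes lay within 0.5 of the median and 76 within 1.

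**Figure D1:**
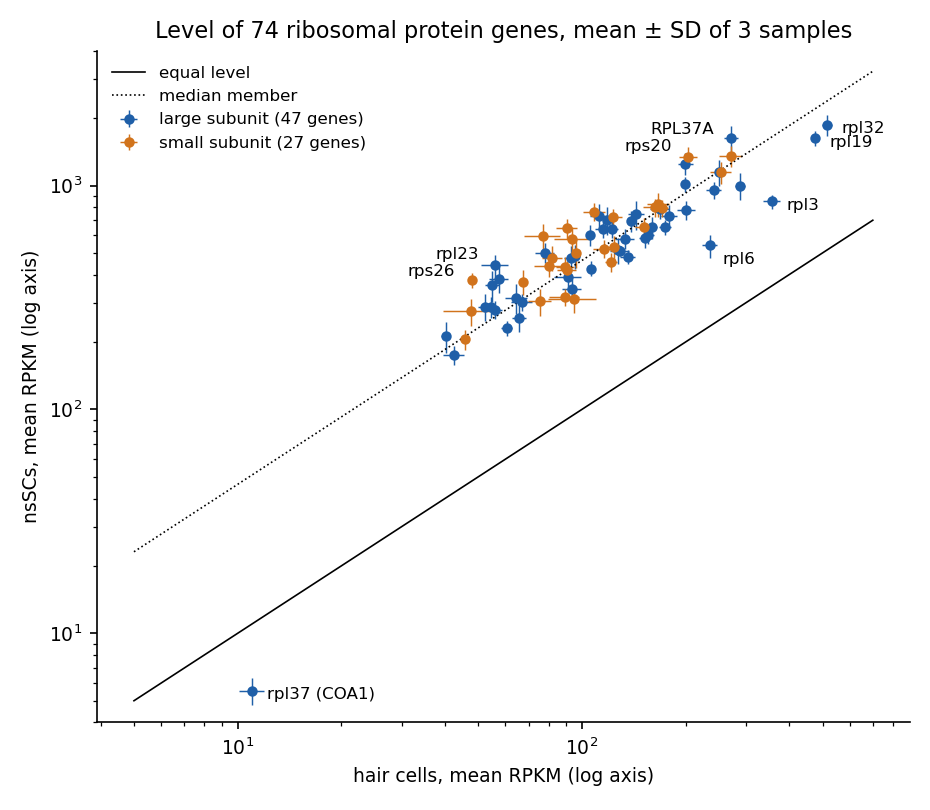
Mean RPKM of 74 ribosomal protein genes in hair cells (horizontal, log axis) and in nsSCs (vertical, log axis), with bars of 1 SD over 3 samples and 1 colour per subunit. Most points lie near the dotted line of the median log2 fold change of -2.21. Those of rpl3 and rpl6 lie between it and the line of equal level. The entry labelled rpl37 that a reference list names COA1 lies below the line of equal level.

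The order of the genes was largely kept between the cell types although the level differed. The median gene stood at 116 RPKM in hair cells, against 540 RPKM in nsSCs, which put it at the 96.1 and the 99.4 percentile of all tested genes of hair cells and nsSCs. None of the 79 genes was among the 100 most abundant genes of hair cells, and 22 were among the 100 most abundant genes of nsSCs. Among the 500 most abundant genes there were 14 in hair cells and 76 in nsSCs. Over the 79 genes the mean levels of the cell types had a Spearman rho of 0.883 and, on the log2 scale, a Pearson r of 0.74, which was 0.877 without the gene called higher in hair cells. These are descriptions across genes of the same 6 libraries. Genes are not independent replicates.

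The gene of highest level in both cell types was rpl32, which encodes a protein of the large subunit surface. It stood at 523, 528 and 495 RPKM in hair cells, against 1694, 2088 and 1818 RPKM in nsSCs. The gene rpl19, whose protein reaches across to the small subunit in a bridge, followed in hair cells with 484, 483 and 460 RPKM, against 1507, 1759 and 1612 RPKM in nsSCs. The levels of rpl32 and rpl19 did not overlap in hair cells and overlapped in nsSCs. In hair cells the next were rpl3 with a mean of 356 RPKM, RPL41 with 287 RPKM and rps2, level with RPL37A at 271 RPKM. In nsSCs RPL37A stood at 1629 RPKM, level with rpl19 at 1626 RPKM, and was followed by rps2 at 1355 RPKM and rps20 at 1343 RPKM, 2 genes whose samples overlapped. The 5 highest genes took 17.9% of the summed ribosomal protein RPKM in hair cells and 16.4% in nsSCs, and 3 of them were the same.

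The 5S ribonucleoprotein, a particle of 5S ribosomal RNA that joins the large subunit during its assembly, holds the proteins Rpl5 and Rpl11. The gene rpl11 stood at 65.5, 68.8 and 62.9 RPKM in hair cells, against 225, 295 and 251 RPKM in nsSCs, a log2 fold change of -1.96 ± 0.10 (SE, limma). The paralogs rpl5a and rpl5b had log2 fold changes of -1.92 ± 0.06 and -2.04 ± 0.08. All 3 changes lay closer to 0 than the median of the 79 genes.

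The stalk of the large subunit is a flexible arm of Rplp0, Rplp1 and Rplp2 anchored beside Rpl12, and it recruits the elongation factors. The gene of its base, rplp0, stood at 239, 256 and 231 RPKM in hair cells, against 885, 1052 and 933 RPKM in nsSCs. Its log2 fold change was -1.98 ± 0.07, against -2.36 ± 0.10 for rplp1, -2.19 ± 0.09 for rplp2 and -2.32 ± 0.07 for rpl12 (SE, limma). All 4 genes of this list, with a median of -2.26, were called higher in nsSCs, as were 46 of the 47 large subunit genes.

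The nascent protein leaves the large subunit through a tunnel whose walls and rim hold several ribosomal proteins. All 9 genes listed for it were called higher in nsSCs, as were 46 of the 47 large subunit genes. The 9 genes had a median log2 fold change of -2.39. They reached from -2.73 ± 0.10 for rpl17, at the tunnel wall, to -1.77 ± 0.06 for rpl19, at the rim. The gene rpl26, whose protein lies near the exit, stood at 190, 210 and 200 RPKM in hair cells, against 1146, 1413 and 1200 RPKM in nsSCs, and at a log2 fold change of -2.64 ± 0.08. The gene rpl39, whose very small protein lines the tunnel, stood at 155, 165 and 161 RPKM in hair cells, against 600, 736 and 617 RPKM in nsSCs, and at -2.02 ± 0.08 (SE, limma).

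In the small subunit, 9 genes were listed for proteins along the path of the mRNA, with a median log2 fold change of -2.32. All 9 were called higher in nsSCs, as were 31 of the 32 small subunit genes. The lowest log2 fold change of all 79 genes was that of rps26, whose protein contacts the mRNA where it leaves the ribosome. It stood at 49.2, 47.5 and 47.2 RPKM in hair cells, against 352, 409 and 374 RPKM in nsSCs, a log2 fold change of -2.97 ± 0.06 (SE, limma, adjusted p = 2.1e-08) and 7.88-fold higher in nsSCs. The gene rps23, of the decoding centre, stood at -2.53 ± 0.14. The gene rps28, whose protein lies at the exit, stood at -2.17 ± 0.09, and rps15, whose protein has a tail near the decoding site, at -2.29 ± 0.08. The most abundant of the list was rps2, of the mRNA entry, at -2.32 ± 0.09. For rps2 the samples were at 282, 283 and 248 RPKM in hair cells, against 1227, 1509 and 1328 RPKM in nsSCs.

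The genes that followed rps26 in the size of the difference came from both subunits. They were rpl23 at -2.97 ± 0.10, rps15a at -2.95 ± 0.12, rps27a at -2.83 ± 0.08, rps12 at -2.81 ± 0.08, rpl17, rps20 at -2.72 ± 0.08 and rpl35a at -2.70 ± 0.09. The gene rpl23, whose protein lies at the face between the subunits, stood at 61.5, 55.0 and 51.6 RPKM in hair cells, against 398, 494 and 428 RPKM in nsSCs. The gene rps27a encodes ubiquitin fused to a small subunit protein, and it stood at 96.4, 90.7 and 84.1 RPKM in hair cells, against 580, 711 and 646 RPKM in nsSCs. Of the genes whose human orthologs are mutated in Diamond-Blackfan anaemia, a failure of red blood cell production, all 20 listed were called higher in nsSCs. So were 77 of the 79 genes of the rule. The 20 genes had a median of -2.14 and ran from rps26 to rps24.

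At the other end, rpl6 and rpl3 differed least among the 77 genes. The gene rpl3, whose protein reaches toward the centre where peptide bonds form, stood at 356, 377 and 337 RPKM in hair cells, against 801, 920 and 829 RPKM in nsSCs. Its log2 fold change was -1.25 ± 0.06 (SE, limma, adjusted p = 1.6e-06). The gene rpl6, of the solvent side of the large subunit, stood at 234, 247 and 224 RPKM in hair cells, against 486, 611 and 523 RPKM in nsSCs, with a log2 fold change of -1.19 ± 0.09 (adjusted p = 1.0e-05). Neither overlapped between the cell types, and both fell short of the 2-fold threshold when all samples were scaled to the same total RPKM, at -0.76 and -0.71. Also near this end were rps24 at -1.72 ± 0.13, rpl19, and RPL41 at -1.79 ± 0.09, whose very short protein bridges the subunits.

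Because the whole set differed, each gene was also tested relative to the set, by scaling all samples to the same summed ribosomal protein RPKM. This scaling was chosen after the values were seen. Only 2 genes then differed by 2-fold or more, both toward hair cells and the entry labelled rpl37 among them at 3.12 ± 0.14, and none did so toward nsSCs. By this scaling, 60.1% of all tested genes were called higher in hair cells and 21.3% higher in nsSCs. The scaling centres the set by construction and took the median log2 fold change of all tested genes to 1.95. The shares of all tested genes given here and below are thus largely set by the scaling and are not a like background. Smaller shifts were common, since 62 of the 79 genes had an adjusted p under 0.05 with no minimum fold, as had 89.4% of all tested genes. Of these, 26 made up a larger part of the set in hair cells, a direction in which 63.5% of all tested genes passed, and 36 a larger part in nsSCs, where 25.8% passed. In the large subunit there were 19 and 20 such genes, and in the small subunit 7 and 16. The largest shifts within the set, apart from these 2 genes, were those of rpl6 at 0.97 ± 0.04 and rpl3 at 0.91 ± 0.04 toward hair cells, and of rps26 at -0.81 ± 0.05, rpl23 at -0.81 ± 0.06 and rps15a at -0.78 ± 0.08 toward nsSCs (log2, SE, limma). In plain shares, rpl3 made up 3.35% of the summed ribosomal protein RPKM in hair cells and 1.78% in nsSCs, and rps26 made up 0.451% in hair cells and 0.793% in nsSCs.

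**Figure D2:**
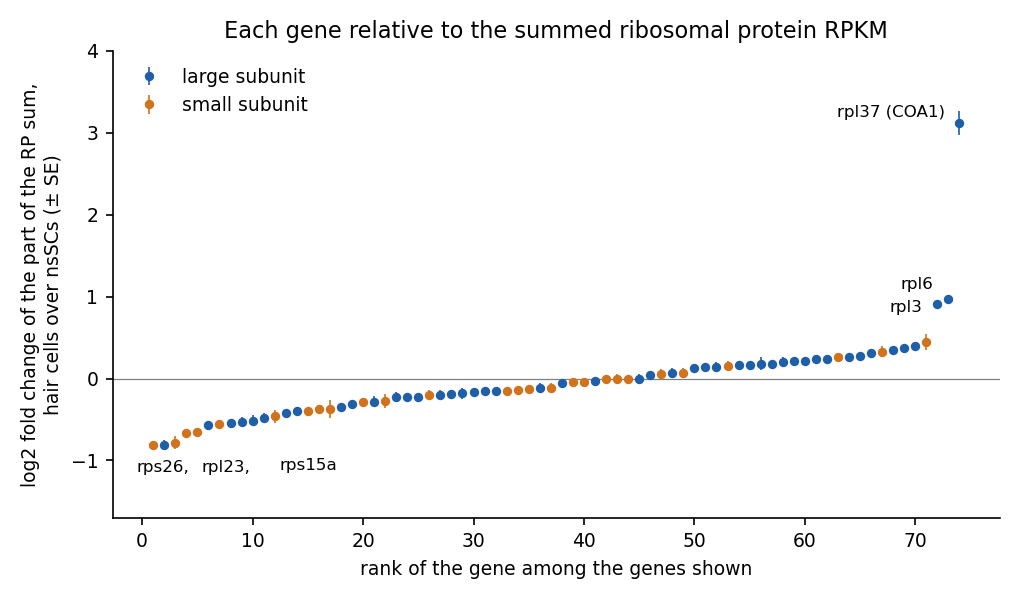
Log2 fold change, hair cells over nsSCs, of 74 genes relative to the summed ribosomal protein RPKM, ranked from lowest to highest, with bars of 1 SE (limma) and 1 colour per subunit. Most genes lie within 0.5 of 0, rpl6 and rpl3 lie near 1, and the entry labelled rpl37 lies at 3.12.

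The balance between the subunits was close in the cell types. The summed RPKM of the large subunit was 1.77, 1.81 and 1.85 times that of the small subunit in hair cells, against 1.64, 1.64 and 1.62 times in nsSCs. The means were 1.81 ± 0.04 in hair cells and 1.63 ± 0.01 in nsSCs (SD, n = 3 each, exact permutation p = 0.1, the smallest possible). The difference of 0.173 came to 0.097 without the 5 highest genes. As a ratio of medians it came to 0.049, and the samples then overlapped (exact permutation p = 0.3). These ratios compare sums of RPKM, not of proteins.

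An entry without a call in either direction has a doubtful label. The table gives the symbol rpl37 to an entry (ENSDARG00000076360) that the reference list of gene names calls COA1, the name of a mitochondrial assembly factor of cytochrome oxidase. Its levels were low, with 10.9, 10.2 and 12.01 RPKM in hair cells, against 4.80, 5.48 and 6.34 RPKM in nsSCs. The samples did not overlap, and the log2 fold change was 0.99 ± 0.12 (SE, limma, adjusted p = 0.00021), short of 2-fold by a small margin. It passed the threshold without hair cell replicate 2 at 1.04 and without nsSC replicate 3 at 1.09. The other entry with this symbol (ENSDARG00000034291) had 92.6, 98.8 and 95.6 RPKM in hair cells, against 437, 550 and 462 RPKM in nsSCs, and a log2 fold change of -2.33 ± 0.09. The doubtful entry held 10.4% of their sum in hair cells and 1.14% in nsSCs. Without the doubtful entry, the share of ribosomal protein genes differed by less than 0.01 percentage points in each cell type.

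Pairs of related genes differed in how far the partners were apart. They were taken from genes whose symbols differ by a paralog letter or suffix or are the same apart from case, some of them outside the symbol rule. Of these, 2 pairs, the fau pair among them, were added after the values were seen. The 2 entries labelled rpl37 were counted as a pair, although the label of 1 is doubtful and they may not be related. For each of 11 pairs, of which 8 are described, the share of one partner was computed in every sample, a quantity that no scaling of a sample can change. In 10 of the pairs, that of rpl37 among them, the samples of the cell types did not overlap. Each of the 10 had an exact permutation p of 0.1, the smallest possible, and 0.11 after adjustment over the 11 pairs. The exception was rpl5b, which held 43.3%, 40.1% and 40.3% of the rpl5 pair in hair cells and 43.0%, 44.0% and 42.5% in nsSCs (exact permutation p = 0.3).

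Of the pairs described, the shares differed most in the fau pair, whose genes encode a ubiquitin-like protein fused to the small subunit protein Rps30. The gene faub stood at 52.7, 49.2 and 52.7 RPKM in hair cells, against 16.6, 19.8 and 15.5 RPKM in nsSCs. Its log2 fold change was 1.58 ± 0.10 (SE, limma, adjusted p = 3.9e-06). The gene faua stood at 98.3, 102 and 97.1 RPKM in hair cells, against 392, 477 and 403 RPKM in nsSCs, with a log2 fold change of -2.09 ± 0.08. The pair summed to a mean that was 2.93-fold higher in nsSCs, and the share of faub was 34.2% ± 1.46 in hair cells and 3.91% ± 0.19 in nsSCs (SD, n = 3 each). In the RefSeq gene list faub overlaps the gene zgc:193742, which stood at 15.6 ± 2.05 RPKM in hair cells, against 15.1 ± 3.05 RPKM in nsSCs, and reads of overlapping genes may be counted to either. The strand of the reads is not given in the sources used here.

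The partner whose symbol ends in l or l1 held a larger share in hair cells in 3 further pairs. The gene rpl22l1, whose mammalian ortholog encodes a replacement for Rpl22, stood at 47.6, 42.3 and 40.4 RPKM in hair cells, against 97.0, 98.8 and 103 RPKM in nsSCs. It held 26.2% ± 0.87 of its pair in hair cells and 13.5% ± 1.1 in nsSCs (SD, n = 3 each). The gene rps26l held 48.8% ± 1.20 of its pair in hair cells and 35.2% ± 0.67 in nsSCs, where rps26 was the gene of the largest difference and rps26l stood at a log2 fold change of -2.16 ± 0.08. The share of rpl7l1 was 11.1% ± 0.94 in hair cells and 7.64% ± 0.24 in nsSCs. That pair rests on the symbols alone, and whether the protein of rpl7l1 takes the place of Rpl7 in the ribosome was not tested.

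The opposite was seen for rplp2l, a partner of the stalk gene rplp2. It stood at 43.1, 50.9 and 44.0 RPKM in hair cells, against 370, 496 and 406 RPKM in nsSCs, and its log2 fold change of -3.19 ± 0.12 (SE, limma, adjusted p = 3.0e-07) lay below that of all 79 genes of the rule. It held 15.5% ± 1.32 of its pair in hair cells and 26.9% ± 0.45 in nsSCs (SD, n = 3 each). The difference was small in the rps27 pair. The share of rps27.2 was 38.7% in hair cells and 36.7% in nsSCs. Reads of near-identical partners can be counted to either gene, and how the counting divided them is not given in the sources used here.

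**Figure D3:**
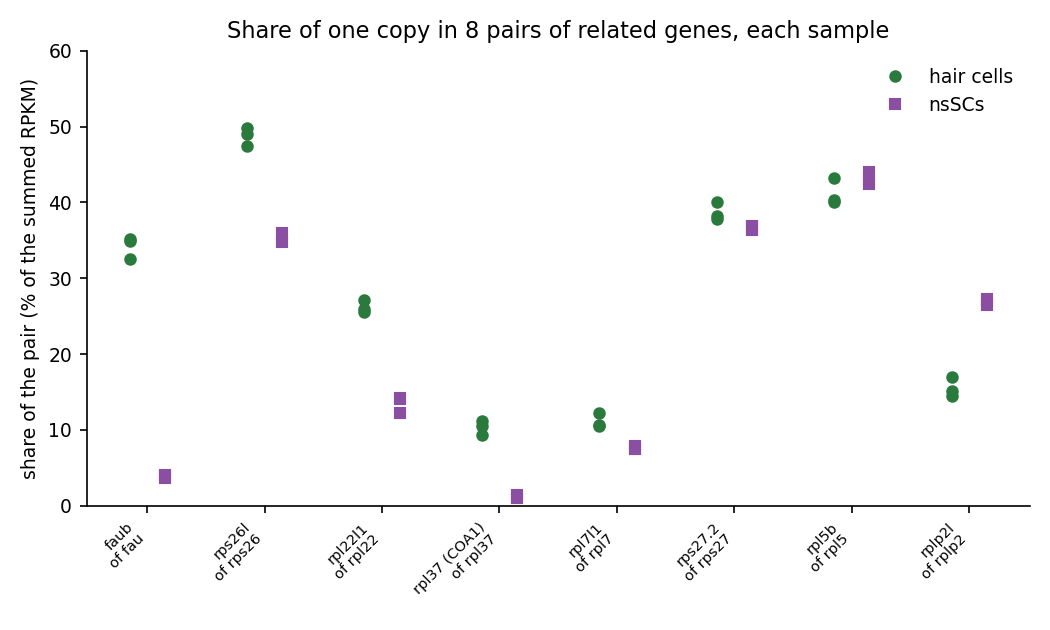
Share of the named partner in the summed RPKM of 8 pairs of related genes, in percent, for each of 3 hair cell samples (circles, left) and 3 nsSC samples (squares, right), ordered by the difference. The mean share of faub is 34.2% in hair cells and 3.91% in nsSCs, and that of rplp2l is the lowest relative to nsSCs. The pair of entries labelled rpl37 rests on a doubtful label.

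Some cytosolic ribosomal proteins have gene symbols outside the rule. The gene rpsa, whose protein is also known as a laminin receptor precursor, stood at a log2 fold change of -2.04 ± 0.08. The gene gnb2l1, which encodes the scaffold Rack1 on the small subunit head, stood at -2.34 ± 0.11 (SE, limma). Both were called higher in nsSCs.

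Over the genes of at least 10 RPKM, the median coefficient of variation was 5.45% for 79 ribosomal protein genes and 5.19% for 6216 other genes in hair cells. In nsSCs it was 10.6% for 77 ribosomal protein genes and 5.88% for 5005 other genes. In nsSCs the genes moved together from sample to sample. Replicate 2 was the highest for 78 of 79 genes and replicate 1 the lowest for 78. Of all tested genes of at least 10 RPKM in nsSCs, 50.7% were highest in replicate 2. In replicate 1, 0% of the 77 ribosomal protein genes lay above the nsSC mean, against 40.8% of other genes. Replicate 2 exceeded replicate 1 in all 79 ribosomal protein genes, by a median factor of 1.23. Replicate 3 exceeded replicate 1 in 78 of them, by a median factor of 1.07. The median log2 deviation from the nsSC mean was -0.13 in replicate 1, 0.16 in replicate 2 and -0.03 in replicate 3, where that of other genes was -0.02, 0.03 and -0.01. Both subunits took part, with a median factor of replicate 2 over replicate 1 of 1.23 for large and 1.22 for small subunit genes.

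In hair cells the common shift was smaller. Replicate 3 was the lowest for 62 of 79 genes and replicate 2 the highest for 42. In replicate 3, 13.9% of the ribosomal protein genes lay above the hair cell mean, against 42.1% of other genes. In replicate 2 these shares were 74.7% and 55.6%. The median log2 deviations were 0.02, 0.04 and -0.06, against 0.01, 0.01 and -0.01 for other genes. The genes of largest coefficient of variation in hair cells were rps23 with 17.0%, rps24 with 15.8% and rps15a with 12.1%, all of the small subunit and all highest in replicate 1. In nsSCs they were rpl24 with 16.1%, rpl14 with 15.9% and rpl28 with 15.2%, all of the large subunit and all highest in replicate 2. For rps23, the levels were 56.6, 44.7 and 41.3 RPKM in hair cells, against 237, 313 and 274 RPKM in nsSCs.

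**Figure D4:**
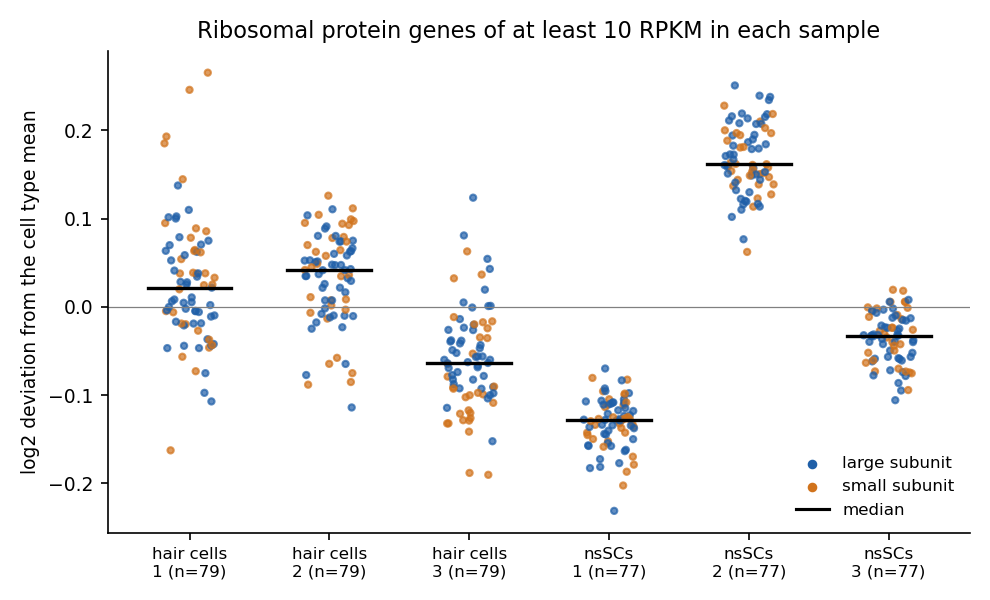
Log2 deviation of each ribosomal protein gene of at least 10 RPKM from the mean of its cell type, for 3 hair cell samples (left, 79 genes) and 3 nsSC samples (right, 77 genes), with a line at the median and 1 colour per subunit. All 77 genes lie above 0 in nsSC replicate 2 and below 0 in nsSC replicate 1.

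The ribosomal protein genes of nsSCs were therefore not independent of each other, and a count of genes does not stand for a count of samples. Without nsSC replicate 2, the median coefficient of variation of the 77 genes in nsSCs was 4.54%, against 3.78% for other genes, each over 2 samples. With 2 samples left, all 77 lay above the mean in replicate 3, which only restates that replicate 3 exceeded replicate 1. Of other genes, 53.2% lay above the mean in replicate 3. Without nsSC replicate 2 the median log2 fold change was -2.13, and 77 genes were still called higher in nsSCs. Markers of several cell types also had their highest nsSC sum in replicate 2, where the ribosomal protein genes summed to 91.0%, 112% and 97.3% of their mean in replicates 1, 2 and 3. The red blood cell markers summed to 92.1%, 109% and 98.7% of their mean, and 6 of the 7 were highest in replicate 2, while slc4a1a, the gene of an anion exchanger, was lowest there. The epithelial markers summed to 97.3%, 105% and 97.7%, with 6 of 6 highest in replicate 2, and the neuron markers to 94.9%, 122% and 82.8%, with 4 of 5. Connective tissue markers summed to 102% in replicate 2, with 5 of 6 highest there, and endothelial markers to 102%, with 3 of 5. The sum over all tested genes also stood at 102% of its nsSC mean in replicate 2. Of all tested genes, 39.1% were highest in replicate 2, and of those of at least 10 RPKM in nsSCs 50.7% were. The sums of leukocyte and glial markers were lowest in replicate 2, but cd74a and mbpa made up most of them, and 2 of 7 leukocyte and 2 of 5 glial markers were lowest there and as many highest. In RPKM the red blood cell markers summed to 940 to 1015 in hair cells, against 20435 to 24229 in nsSCs, and none of the 7 was at 0 in hair cells. The epithelial markers summed to 788 to 827 RPKM in hair cells, against 2459 to 2657 RPKM in nsSCs, and the neuron markers to 73.0 to 79.7 RPKM in hair cells, against 9.23 to 13.6 RPKM in nsSCs. In hair cells, single genes made up most of both sums, with means of 642 RPKM for krt5, which was not called, and 58.7 RPKM for isl1. The neuron markers isl1 and snap25b were called higher in hair cells, and elavl3 and neflb higher in nsSCs. The leukocyte markers summed to 8.87 to 10.7 RPKM in hair cells, against 418 to 461 RPKM in nsSCs, and coro1a, csf1ra and mpeg1.1 were at 0 in all hair cell samples. The part of these cell types in the ribosomal protein values was not tested.

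Genes that make and serve the ribosome were called in both directions. Ribosome biogenesis factors process the ribosomal RNA and assemble the subunits in the nucleolus. Of 91 tested, 7 were called higher in hair cells, 32 higher in nsSCs and 52 in neither direction, against 31% and 35.4% of all tested genes called higher in hair cells and in nsSCs, so that the count higher in nsSCs lay at the background. They had a median log2 fold change of -0.47, or 0.02 with all samples at the same total RPKM. The gene npm1a, which encodes the nucleolar protein nucleophosmin, averaged 23.7 ± 1.07 RPKM in hair cells, against 132 ± 6.31 RPKM in nsSCs (SD, n = 3 each), a log2 fold change of -2.47. The genes fbl and nop58, of the box C/D particles that methylate ribosomal RNA, stood at -1.14 and -1.20, and at -0.65 and -0.71, short of 2-fold, with the same total RPKM. Higher in hair cells were wdr12, of a complex that processes large subunit RNA, at 1.63, and rrn3 and polr1d, of RNA polymerase I transcription, at 1.73 and 1.70.

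Translation factors were spread around 0, with 11 of 60 called higher in hair cells and 10 higher in nsSCs, against 31% and 35.4% of all tested genes. Their median log2 fold change was -0.08, which was -0.56 under median-ratio scaling and 0.41 with the same total RPKM. The gene eef1a1b, which encodes an elongation factor that brings aminoacyl-tRNA to the ribosome, averaged 657 ± 7.92 RPKM in hair cells, against 2.23 ± 0.49 RPKM in nsSCs (SD, n = 3 each). Its paralogs in the list, eef1a1a and eef1a2, were also called higher in hair cells and averaged 4.42 and 0.20 RPKM in nsSCs. Genes of this factor outside the list were not examined, so that its total level in nsSCs is not known from these values. The cap-binding factor gene eif4e1c stood at a log2 fold change of 2.10 and eif4g2b, which encodes an initiation scaffold, at 1.43. Lower in hair cells were eef1da, of the exchange factor of that elongation factor, at -2.92, tpt1 at -1.13 and naca, of the complex that binds nascent chains, at -1.08. With the same total RPKM, tpt1 and naca were short of 2-fold at -0.65 and -0.59, as was eif4g2b under median-ratio scaling at 0.95. Both counts of this list depended on the scaling, with 7 and 20 genes under median-ratio scaling and 20 and 2 with the same total RPKM. Of all tested genes, 24.5% and 40.4% were called in these directions under median-ratio scaling, and 39.1% and 31.3% with the same total RPKM.

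The mitochondrial ribosome is encoded by a separate set of nuclear genes. Of its 76 genes, 7 were called higher in hair cells and 3 higher in nsSCs, against 31% and 35.4% of all tested genes. The median log2 fold change was 0.28, or -0.20 under median-ratio scaling. The counts came to 0 and 5 under median-ratio scaling, against 24.5% and 40.4% of all tested genes. With the same total RPKM they came to 26 and 0, against 39.1% and 31.3%. The median of all tested genes moved as well, from 0.00 to -0.45 under median-ratio scaling and to 0.46 with the same total RPKM. The list median lay above it in each setting, at 0.28, -0.20 and 0.77. The gene mrpl12 averaged 122 ± 2.43 RPKM in hair cells, against 55.8 ± 3.75 RPKM in nsSCs, and mrpl54 averaged 16.7 ± 1.19 RPKM in hair cells, against 45.2 ± 0.60 RPKM in nsSCs (SD, n = 3 each). Both were short of 2-fold under another scaling, mrpl12 at 0.65 under median-ratio scaling and mrpl54 at -0.94 with the same total RPKM.

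**Figure D5:**
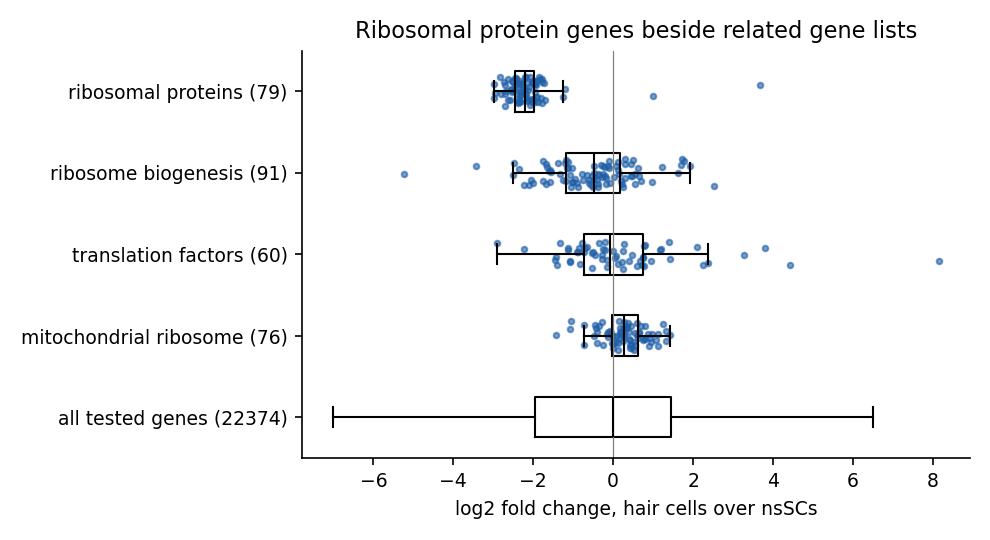
Log2 fold change, hair cells over nsSCs, of the 79 ribosomal protein genes, of 3 related lists and of all 22374 tested genes, with boxes for the interquartile range and the median and 1 point per gene in the lists. The ribosomal protein genes form a narrow group around -2.21, while the medians of the lists lie at -0.47, -0.08 and 0.28. The medians of the lists change sign with the scaling, which also moves the median of all tested genes.

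Of 18 genes that control ribosome production, 7 were called higher in hair cells and 7 higher in nsSCs, near the background of 31% and 35.4% of all tested genes. The gene mycb, which encodes a transcription factor known to raise ribosomal gene expression, averaged 127 ± 4.66 RPKM in hair cells, against 9.83 ± 0.32 RPKM in nsSCs (SD, n = 3 each), a log2 fold change of 3.68. Genes of the 4E-BP family, whose proteins hold back cap-dependent translation until mTOR phosphorylates them, went in opposite directions. The gene eif4ebp2 averaged 131 ± 5.28 RPKM in hair cells, against 54.8 ± 1.78 RPKM in nsSCs, a call that median-ratio scaling took to 0.78, short of 2-fold. In contrast, eif4ebp3l averaged 8.61 ± 0.95 RPKM in hair cells, against 267 ± 8.32 RPKM in nsSCs. The gene eif4ebp3 stood at -3.42.

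The gene outside these lists that came nearest in pattern to the mean ribosomal protein gene, among those detected in both cell types, was dnttip2. It stood at 3.53, 3.25 and 3.24 RPKM in hair cells, against 14.3, 17.0 and 13.8 RPKM in nsSCs. The likeness is one of pattern over the 6 samples and not of level. The distance of dnttip2 was 0.14 on the log2 scale, where the median ribosomal protein gene had 0.32. The 4 genes nearer than dnttip2 were col5a2b, si:dkey-95h12.1, MYO1G and CHST8. They were at 0 in every hair cell sample and under 0.5 RPKM in nsSCs, so that the value added before the logarithm set their likeness.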

How the data were processed

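RNA of picked cells was amplified with a SMART-Seq kit and sequenced as paired ends. Per the study's methods, CLC Genomics Workbench placed reads on GRCz10 and HTSeq count gave the estimates, and the authors deposited RPKM values of 2 decimals. Versions are not given in the sources used here. RPKM hold no counts, so that counting error is unknown. Of 35919 entries, 4218 held a name alone and were left out.

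Genes were fitted on log2(RPKM + 0.1) in limma 3.58.1 under R 4.3.3, using trended, robust moderation (statmod 1.5.0) and Benjamini-Hochberg adjustment over 22374 genes. The fit was tested on simulated data. Sums, shares and exact tests were computed in Python 3.11.15. Named are the 8 highest and 8 lowest fold changes, the 5 most abundant and 3 most variable genes of each cell type, paralogs, 5S and stalk genes, up to 3 called genes per direction of other lists by mean RPKM, and the 5 genes nearest in pattern. Members and lists were chosen with earlier results of these data known. RefSeq gene neighbours come from GRCz12tu, and no coordinates or sequences are printed. Alternatives were pseudocounts of 1 and 0.01, filters of 1 RPKM or none, other scalings, fold minima of 4 or none, the study's call rule, no moderation, a replicate block and leaving out samples. Some genes are counted but not reported here.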

Additional observations from a re-analysis of the deposited data

How the results depend on the processing

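The count of 77 genes higher in nsSCs held under the other pseudocounts and filters, the study's call rule and the loss of any 1 sample. It held under removal of mitochondrial genes and under median-ratio scaling, where 40.4% of all tested genes were called in that direction. It was 75 with the same total RPKM, against 31.3% of all tested genes. At a fold minimum of 4 it was 56, and the share of all tested genes at that minimum is not given here. With the same summed ribosomal protein RPKM the count was 0, by construction of that scaling. The count higher in hair cells was 2 with the same total RPKM, against 39.1% of all tested genes. With the same summed ribosomal protein RPKM it was 2, against 60.1%. It was 2 with no fold minimum and 1 to 2 when a sample was left out. The second gene was the entry labelled rpl37, at 1.47 with the same total. The median log2 fold change was -2.69 under median-ratio scaling, -1.72 with the same total and -2.58 without mitochondrial genes, and -2.27 to -2.13 when a sample was left out. These scalings moved the median of all tested genes by -0.45, 0.46 and -0.34, and relative to that median the ribosomal protein genes stood at -2.24, -2.18 and -2.24. The share in hair cells minus nsSCs was -3.30 percentage points, -8.52 with mitochondrial genes left out of the total and -2.76 without the 5 highest genes, and -3.48 to -3.07 when a sample was left out. The subunit ratio difference was 0.049 by medians and 0.097 without the 5 highest genes, and 0.152 to 0.193 when a sample was left out. The nsSC coefficient of variation was 4.54% without nsSCs replicate 2, against 3.78% for other genes, and 8.64% under median-ratio scaling, against 5.67%.

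With the same total RPKM, 39.1% of all tested genes were called higher in hair cells and 31.3% higher in nsSCs. In these directions, 13 and 18 of the 91 biogenesis genes were called. Of the 60 translation factors 20 and 2 were called, and of the 76 mitochondrial ribosome genes 26 and 0. Under median-ratio scaling, translation factors were called 7 and 20, and the mitochondrial ribosome 0 and 5, against 24.5% and 40.4% of all tested genes. At a pseudocount of 1 RPKM, 6 of the 18 regulators were called higher in hair cells and 4 higher in nsSCs. Of all 22374 tested genes, 5278 and 4516 were called in these directions at that pseudocount. With the same summed ribosomal protein RPKM, a scaling chosen after the values were seen, the median log2 fold change was -0.047 and 33 of the 79 genes lay above 0. Of 32 named members, 11 then reversed, with log2 fold changes of 0.12 for rpl5b, 0.18 for rplp0, 0.21 for rpl11, 0.22 for rpl7, 0.24 for rpl5a, 0.31 for rpl32, 0.37 for RPL41, 0.39 for rpl19, 0.45 for rps24, 0.91 for rpl3 and 0.97 for rpl6. None of the 32 reversed under the other alternatives. Deviations from the cell type mean, over all tested genes, had correlations of -0.05, 0.02 and 0.00 between samples of the same replicate number. These correlations cannot show whether such samples shared fish, so that pairing is unknown. With the replicate block the counts were 77 and 1, as without it.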
